A study of Mus musculus with 4 samples.

Results

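The 9 genes En1, En2, Gbx2, Lmx1a, Lmx1b, Irx1, Irx2, Irx3 and Irx5 encode homeodomain transcription factors that pattern the midbrain and hindbrain. They were taken as every non-control array probe whose gene name in the scanner files was one of these, which gave 13 probes in 31 spots, of 27670 gene or transcript names, 41174 probes and 43379 spots in all. Total RNA was labelled with Cy3 from 0.25 ug per sample and hybridised to 4 1-colour Agilent mouse arrays, 1 per sample. The reference sample, Mixture, pooled RNA of day 11 embryo with RNA of the lung, liver, spleen, thymus, kidney and heart, in equal mass, with the strain label Swiss Webster. The remaining 3 samples were neural progenitor cell (NPC) lines, each established from a different embryonic stem (ES) cell line: NS21 from ES line 21 and NSEB5-2C from ES line EB5, both with the strain label 129/Ola, and NS195R from ES line 195R, with the label 129/Sv. No agent, gene deletion or age is given for the lines. The study set the lines against Mixture to find transcription factors with relatively higher expression in NPC.

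Each line has 1 array, so that p-values measure the spread between lines, which holds strain, line and technical differences together. No line has the strain of Mixture, so in ratios to Mixture the strain cannot be told apart from the cell type. In these bulk samples, fewer cells of a type and less RNA per cell cannot be told apart. The tissue pool was checked against markers because one label of Mixture names a doxycycline-treated NPC line. Heart muscle markers were well above background for 7 of 8 genes in Mixture, with a summed level of 75700% of the array's percentile 75 against 46.4 to 701% in the lines, and lung epithelium markers for 6 of 6 genes, with 34100% against 4.05 to 7.68%. The lines carried neural progenitor markers unevenly, with 10 of 15 measured in NS21, 15 in NS195R and 12 on the NSEB5-2C array well above background, against 13 in Mixture. Sox2, a factor that keeps neural progenitors dividing, lay at 643% in NS195R and 182% in NSEB5-2C, and its 2.89% in NS21 was not well above background. Between 23983 and 26840 spots per array were well above background and 0 were saturated.

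In the vertebrate embryo the isthmus, the boundary between midbrain and hindbrain, acts as an organizer that secretes FGF8 and Wnt1. Otx2 marks the tissue in front of it and Gbx2 the tissue behind it, and these factors repress each other, while En1 and En2 are expressed across the boundary and are needed for midbrain and cerebellum. Lmx1a and Lmx1b are LIM homeodomain factors of the roof plate and of the dopamine and serotonin neurons of midbrain and hindbrain. The Iroquois genes lie in clusters, Irx1 with Irx2 and Irx4 and Irx3 with Irx5 and Irx6, and their proteins divide the neural tube into territories along its length and from back to belly.

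Promoters are shown for 4 members, because 3 of them (En1, Gbx2 and Irx2) had a measured level in different sets of lines and the fourth (Lmx1a) in none. They run from 250 bases before to 50 after the gene start, in the RefSeq table of build GRCm38.p6, which held 6 of the 9 members. Capitals mark each CpG dinucleotide.
En1: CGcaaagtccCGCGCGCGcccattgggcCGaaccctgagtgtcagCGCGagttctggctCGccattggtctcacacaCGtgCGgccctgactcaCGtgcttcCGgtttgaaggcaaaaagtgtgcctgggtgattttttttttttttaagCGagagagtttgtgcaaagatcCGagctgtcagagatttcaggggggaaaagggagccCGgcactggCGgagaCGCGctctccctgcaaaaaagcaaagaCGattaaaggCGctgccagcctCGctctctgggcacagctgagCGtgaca
Gbx2: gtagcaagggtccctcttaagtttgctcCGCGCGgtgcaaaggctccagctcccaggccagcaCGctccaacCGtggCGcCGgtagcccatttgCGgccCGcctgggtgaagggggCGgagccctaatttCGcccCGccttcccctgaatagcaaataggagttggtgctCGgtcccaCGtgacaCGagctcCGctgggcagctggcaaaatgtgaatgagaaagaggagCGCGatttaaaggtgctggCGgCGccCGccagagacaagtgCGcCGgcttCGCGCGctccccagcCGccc
Irx2: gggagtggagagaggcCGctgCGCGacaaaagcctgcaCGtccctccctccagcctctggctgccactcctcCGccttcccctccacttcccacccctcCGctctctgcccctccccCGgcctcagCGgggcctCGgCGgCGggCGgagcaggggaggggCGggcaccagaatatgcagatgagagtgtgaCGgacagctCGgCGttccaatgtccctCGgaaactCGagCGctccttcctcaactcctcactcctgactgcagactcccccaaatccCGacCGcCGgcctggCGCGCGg
Lmx1a: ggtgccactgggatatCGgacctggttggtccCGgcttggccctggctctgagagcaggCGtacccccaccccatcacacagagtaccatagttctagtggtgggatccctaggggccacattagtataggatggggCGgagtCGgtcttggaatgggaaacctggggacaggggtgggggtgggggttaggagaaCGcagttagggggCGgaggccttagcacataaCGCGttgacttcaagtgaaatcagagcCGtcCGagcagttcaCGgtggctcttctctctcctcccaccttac
These windows are chr1:120602237-120602536 on the plus strand for En1, chr1:89931127-89931426 on the minus strand for Gbx2, chr13:72628570-72628869 on the plus strand for Irx2 and chr1:167689308-167689607 on the plus strand for Lmx1a. The Gbx2 window holds 27 CpG, Irx2 25 and En1 23, and Lmx1a holds 12, against a median of 7 over the 32851 promoters of the table. Between 60.4% and 84.5% of all promoters held fewer CpG than these 4. The 6 letters TAATTA, the core that many homeodomain proteins bind, were searched on both strands and are found in 0 of the 6 member windows and in 5.29% of all promoters. GGGCGG, the GC box core, occurs 2 times in each of Gbx2, Irx2 and Lmx1a and in 35.7% of all promoters. CCAAT occurs 2 times in En1 and in Lmx1b and 1 time in Irx2, and in 37.4% of all promoters. TATAAA occurs in 0 of the 6 and in 13.6% of all promoters.

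Signals are given as a percentage of the percentile 75 of the same array's non-control spots. A probe counts as measured where the scanner software marked it well above background, and the lowest such signal on an array, its floor, lay between 2.74% and 3.13%. By that mark 7 of the 13 probes were measured in Mixture, 7 in NS21, 9 in NS195R and 6 on the NSEB5-2C array. As genes these are 4, 5, 6 and 4 of the 9. Over all probes the shares were 60.9% in Mixture, 56.2% in NS21, 58.7% in NS195R and 54.8% on the NSEB5-2C array. At least 1 probe of 6 genes passed the filter, which asked for a measured signal on at least 1 array, and 9 of the 13 probes passed it. The probes of Lmx1a, Lmx1b and Irx3 and 1 probe of Gbx2 did not pass. A ratio against an unmeasured probe is written "at least N-fold" and is taken against the higher of the floor and the probe's own signal. The probe files place the En2 probe at chromosome 5, 27204383 to 27204443, the Gbx2 probe on the RefSeq transcript at chromosome 1, 89833215 to 89833274, and the 3 Irx2 probes on chromosome 13 within 69562330 to 69564502, in a build that is not named.

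**Figure D1:**
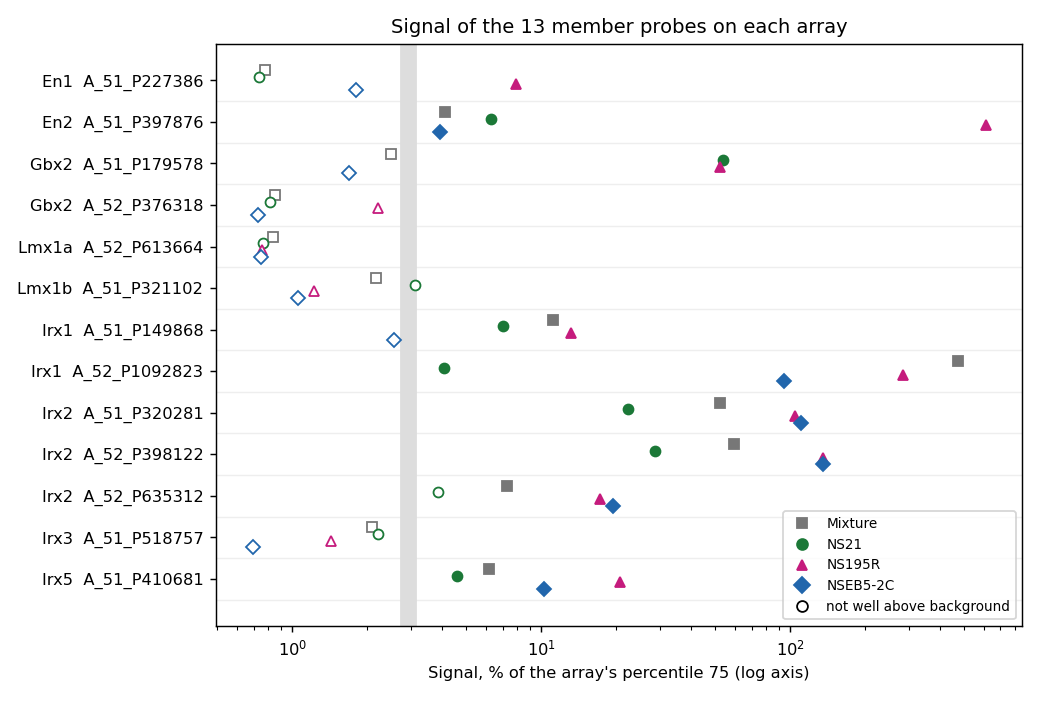
Signal of the 13 probes of the 9 genes on each array, as a percentage of that array's percentile 75 on a log axis. Filled symbols are measured values, open symbols are not well above background, and the grey band spans the floors of the 4 arrays (2.74% to 3.13%). En2 stands at 611% in NS195R, away from the other arrays, and both symbols of Gbx2 at NS21 and NS195R lie together near 50%.

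En2, a late-onset Engrailed factor of midbrain and cerebellum, was abundant in NS195R and near the floor in the other lines. Its level was 6.31% of percentile 75 in NS21, 611% in NS195R, 3.92% in NSEB5-2C and 4.12% in Mixture. The probe has 10 spots per array, and the SD of their log2 signals was 0.18 in NS21, 0.0374 in NS195R, 0.33 in NSEB5-2C and 0.40 in Mixture. NS195R was 96.8-fold above NS21 and 156-fold above NSEB5-2C, differences far outside the spread of the spots. NS21 was 1.61-fold above NSEB5-2C, and their spots overlapped. In Mixture 6 of 9 kept spots and in NSEB5-2C 8 of 10 were well above background, so that these 2 levels sit at the edge of measurement. NS195R lay 148-fold above Mixture, NS21 1.53-fold above it and NSEB5-2C 1.05-fold below it. The last of these changed sign under other scalings.

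En1, the earlier Engrailed factor, was measured in NS195R alone. Its level was 0.779% in Mixture, 0.733% in NS21 and 1.80% in NSEB5-2C, none of them well above background, and 7.90% in NS195R, where 10 of 10 spots were. The SD of the log2 signals of the spots was 0.20 in NS195R and 0.45 in NSEB5-2C. NS195R was at least 2.62-fold above NS21, at least 2.88-fold above NSEB5-2C and at least 2.52-fold above Mixture. Both Engrailed genes thus had their highest level in the same line. The 2 levels come from different probes and are not compared with each other.

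**Figure D2:**
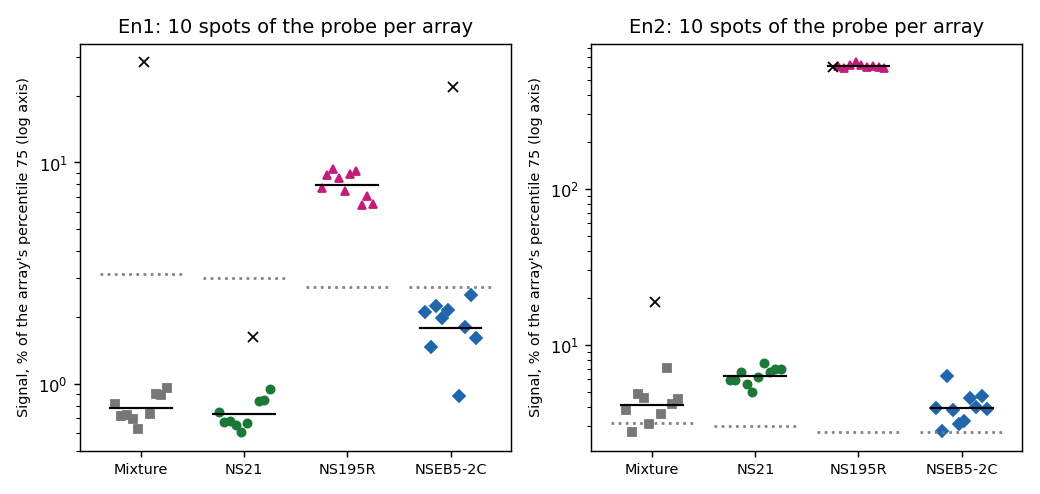
Each of the 10 spots of the En1 probe (left) and of the En2 probe (right) on each array, as a percentage of that array's percentile 75 on a log axis. Black bars are geometric means of the kept spots, crosses are spots left out as outliers and dotted lines are the floors. The NS195R spots lie above those of every other array in both panels, apart from the En1 crosses of Mixture (28.3%) and NSEB5-2C (21.8%).

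Gbx2, the factor of the hindbrain side of the isthmus, was shared by NS21 and NS195R and was not measured elsewhere. Its level at the probe on the RefSeq transcript was 53.7% in NS21 and 52.4% in NS195R, and 2.49% in Mixture and 1.70% in NSEB5-2C, neither of them well above background. Probes with repeated spots at such signals had a median SD of 0.0682 in NS21 and 0.0655 in NS195R on the log2 scale. The 1.02-fold gap between these lines is within that spread of repeated spots. NS21 was at least 19.6-fold and NS195R at least 19.1-fold above NSEB5-2C. Against Mixture the lines were at least 17.1-fold and at least 16.7-fold higher. A further probe named Gbx2 was annotated on a different transcript, lay 4014 bases away in the opposite orientation, and had no measured signal, with 0.813% in NS21, 2.21% in NS195R, 0.726% in NSEB5-2C and 0.856% in Mixture.

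Otx2, which marks the midbrain and forebrain side of the boundary, was set beside Gbx2. It lay at 85.5% in NS195R and 7.78% in NSEB5-2C, and its signals in Mixture (0.849%) and NS21 (0.733%) were not well above background. NS21 therefore had Gbx2 without measured Otx2, NSEB5-2C had Otx2 without measured Gbx2, and NS195R had both, together with both Engrailed genes. These are levels of whole cultures, and whether single cells carried both factors was not measured.

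Neither Lmx1 factor had a measured level. Lmx1a gave 0.763% in NS21, 0.756% in NS195R, 0.749% in NSEB5-2C and 0.836% in Mixture. Lmx1b gave 3.13% in NS21, 1.22% in NS195R, 1.05% in NSEB5-2C and 2.17% in Mixture. None of these 8 values was well above background, and Lmx1b in NS21 lay at about the floor of its array (3.01%). By the weaker mark of positive and significant signal Lmx1b passed on 4 of 4 arrays and Lmx1a on 0. Each gene rests on 1 probe with 1 spot per array. Of the 19 dopamine and serotonin neuron genes of a list, 14 were tested and limma called 0 higher and 0 lower, with 0 and 1 by an unadjusted p under 0.05 and a median log2 difference of -2.50 from Mixture. Well above background were 14 of the 19 in Mixture, 9 in NS21, 8 in NS195R and 10 on the NSEB5-2C array. Th, the rate-limiting enzyme of dopamine synthesis, and the serotonin factor Fev and enzyme Tph2 had no measured signal. Nr4a2 lay at 17.3% in Mixture, 3.20% in NS21, 20.8% in NS195R and 59.7% on the NSEB5-2C array. Pitx3 was measured in Mixture (13.2%) and NS195R (6.14%). Slc6a3 was measured in Mixture (4.08%) and NS21 (6.50%), and Slc6a4 in Mixture (26.8%) and NSEB5-2C (6.10%). The floor plate factor Foxa2 lay at 273% in Mixture, 26.3% in NS21, 11.4% in NS195R and 412% on the NSEB5-2C array. Msx1, a factor of midbrain dopamine progenitors and of many other tissues, lay at 24.3%, 290%, 4.57% and 86.7% in the same order. Gata2, a serotonin lineage factor, and Ddc, the decarboxylase of both transmitters, had their highest line level in NS21, at 171% and 119%, and the retinaldehyde dehydrogenase gene Aldh1a1 in NS195R, at 579%, while all 3 were higher in Mixture (193%, 256% and 3322%).

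Irx2, an Iroquois factor of hindbrain and cerebellum, gave the same order of samples at all 3 of its probes, with NS21 lowest and NSEB5-2C highest. At the probe A_52_P398122 its level was 59.6% in Mixture, 28.7% in NS21, 135% in NS195R and 136% on the NSEB5-2C array. In the same order, at A_51_P320281 it was 52.3%, 22.3%, 104% and 110%, and at A_52_P635312 it was 7.28%, 3.85% (not well above background), 17.3% and 19.5%. All 3 probes placed NS195R and NSEB5-2C above Mixture and NS21 below it. NS195R and NSEB5-2C differed by 1.01-fold, 1.06-fold and 1.13-fold. NS21 was 4.71-fold and 4.74-fold below them at the first probe, 4.68-fold and 4.94-fold at the second, and at least 4.49-fold and at least 5.06-fold at A_52_P635312. Repeated probes of like signal had a median SD of 0.0588 to 0.0734 within the arrays of the lines at the first probe. The deficit in NS21 is far outside that spread, which holds no labelling or hybridisation differences between arrays. The 3 probes are on 1 transcript and measure the same RNA, and they are not replicates of the line.

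Irx1, the neighbour of Irx2 in its cluster, gave different answers from its 2 probes. At A_52_P1092823 the level was 472% in Mixture, 4.05% in NS21, 285% in NS195R and 94.2% on the NSEB5-2C array. At A_51_P149868 it was 11.1%, 7.01% and 13.1% in the first 3 of these samples and 2.57%, not well above background, in NSEB5-2C. By the first probe NS195R was 70.2-fold and NSEB5-2C 23.2-fold above NS21, and NS195R 3.02-fold above NSEB5-2C. By the second NS195R was 1.87-fold above NS21, and NSEB5-2C was the lowest line, at least 2.56-fold below NS21. The order of NS21 and NSEB5-2C is thus opposite between the probes, and both put NS195R first among the lines. The first probe is annotated on a transcript outside RefSeq and the second on the RefSeq transcript of Irx1, 1568 bases away in the same orientation, and which of them follows the Irx1 protein-coding message was not tested.

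Of the second cluster, Irx5 had a low but measured level and Irx3 had none. Irx5 lay at 4.59% in NS21, 20.7% in NS195R, 10.2% in NSEB5-2C and 6.17% in Mixture. NS195R was 4.51-fold above NS21 and 2.02-fold above NSEB5-2C, and NSEB5-2C was 2.23-fold above NS21, against a technical SD of 0.0934 to 0.25 on the log2 scale at these signals. Irx3, its cluster neighbour, gave 2.21%, 1.43%, 0.693% and 2.10% in the same order, none of them well above background. Of the cluster genes outside the 9, Irx6 likewise had no measured signal. Irx4, in the cluster of Irx1 and Irx2, lay at 47.9% in Mixture, 4.32% in NS21, 5.21% in NS195R and 3.86% on the NSEB5-2C array.

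Against Mixture, 0 of the 9 tested member probes passed limma at an adjusted p under 0.05, where 0.943% of the 29700 probes were called higher and 7.88% lower. By an unadjusted p under 0.05, 0 of the 9 passed, against 16.9% higher and 13.8% lower over all probes. En2 had a log2 difference of 2.59 (SE 3.57, limma adjusted p = 0.67), Gbx2 of 2.76 (SE 2.56, 0.524) and En1 of 1.49 (SE 1.57, 0.575). Gbx2 and En1 were not well above background in Mixture, so their fitted differences do not measure a size. The SE of En2 is larger than its difference because 1 line of the 3 carried the signal. Irx1 at A_52_P1092823 was lower in 3 of 3 lines, with -3.31 (SE 2.83, limma adjusted p = 0.492). The 3 Irx2 probes had 0.28, 0.44 and 0.58 with an SE between 1.19 and 1.21, and Irx5 had 0.68 (SE 1.02). The median over the 9 was 0.58, beside 0.54 over all probes tested. That 0.58 is the value of 1 of the 3 Irx2 probes, which share their RNA.

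Irx4, which is no member, was lower in the NPC lines than in the tissue pool. It was 10.8-fold lower than in Mixture (log2 -3.43, SE 0.40, limma adjusted p = 0.0301, lower in 3 of 3 lines). NS21 lay 11.1-fold, NS195R 9.18-fold and NSEB5-2C 12.4-fold below it. The line levels of 3.86% to 5.21% lay close to the floors of their arrays (2.74% to 3.01%). Heart was in the pool, with the marker levels given above, and the part of the pooled tissues in this result was not tested. The call ended without NS21 (adjusted p = 0.156), without NS195R (0.0825) and without NSEB5-2C (0.122), as well as with median scaling (0.0629) and over probes measured on all arrays (0.117). Over all its alternatives the adjusted p lay between 0.0175 and 0.156. Leaving out any 1 line took the calls over all probes from 280 higher and 2340 lower to 0 and 0.

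Probes measured on all 4 arrays, 18876 in number, had a median log2 ratio to Mixture of 0.82 in NS21, 0.73 in NS195R and 0.75 on the NSEB5-2C array, and these shifts depended on the scaling. Relative to them, En2 in NS195R lay at 6.49 and Gbx2 at 3.61 in NS21 and 3.67 in NS195R, before any bound. Irx2 at A_52_P398122 lay at -1.87 in NS21, 0.46 in NS195R and 0.44 on the NSEB5-2C array. Irx5 lay at -1.25, 1.02 and -0.02 in the same order. Under percentile, median and quantile scaling and normexp background correction, the direction against Mixture changed for En1 and Irx5 in NS21, for Irx1 at A_51_P149868 in NS21, and for En2 and Gbx2 in NSEB5-2C, and for no other tested member probe and line.

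The study selected factors by a rule of size, an excess over Mixture of at least 1.5-fold in NSEB5-2C together with either NS195R or NS21. With signal well above background in those lines also asked for, 4 of the 9 probes met it, the 3 of Irx2 and that of Irx5, against 38.2% of all tested probes. En2, En1 and Gbx2 did not meet it, because NSEB5-2C was not 1.5-fold over Mixture with a measured level. En2 met it with median scaling and with quantile normalization, where its log2 ratio in NSEB5-2C was 0.92 and 1.07. The threshold of 1.5-fold is 0.58 on the log2 scale, and the median shift of probes measured on all arrays is above it. Relative to that shift the 3 Irx2 probes in NSEB5-2C lay at 0.32, 0.44 and 0.67. Nearest to the threshold in NSEB5-2C were Irx5 inside it, at 1.66-fold over Mixture, and En2 outside it, at 1.05-fold below.

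**Figure D3:**
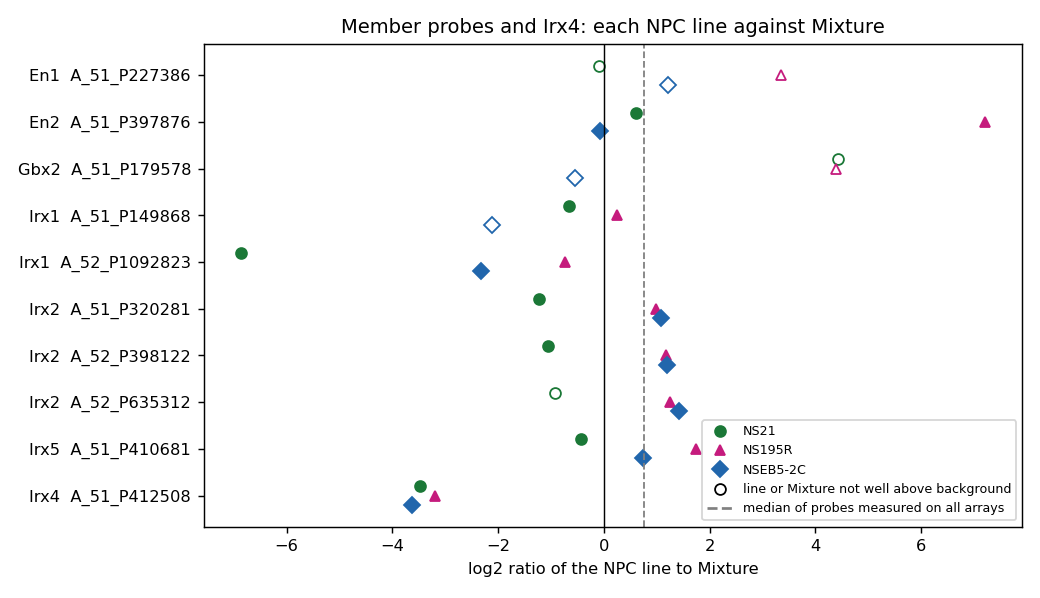
Log2 ratio of each NPC line to Mixture for the 9 tested member probes and Irx4. Open symbols are ratios in which the line or Mixture was not well above background, and the dashed line is the median over probes measured on all arrays (0.75). The En2 symbol of NS195R lies at 7.21 and the Irx1 symbol of NS21 at A_52_P1092823 at -6.86, while the Irx2 symbols of NS195R and NSEB5-2C lie close together.

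Each line was then set against the mean of the other lines. NS195R had 4 of 9 probes at least 2-fold above both other lines, those of En1, En2, Irx1 (A_52_P1092823) and Irx5, where 11.5% of all probes were, and 0 as far below, where 6.15% were. NS21 had 0 probes as far above, where 7.43% were. It had 5 as far below, those of Irx1 (A_52_P1092823), Irx2 (3 probes) and Irx5, where 4.56% were. NSEB5-2C had 0 as far above, where 6.26% were, and 2 as far below, Gbx2 and Irx1 (A_51_P149868), where 7.27% were. Probes of 1 gene share their RNA, so that the 5 low probes of NS21 stand for Irx2, Irx5 and, at 1 of its 2 probes, Irx1. En1 passed the filter through NS195R alone, and Gbx2 through NS21 and NS195R alone. The filter thus favoured En1 in the NS195R count and Gbx2 in the NSEB5-2C count.

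Limma called 0 member probes and 0 probes in all for each line, with 1 residual degree of freedom. At an unadjusted p under 0.05 it had 4 of 9 member probes for NS21 and 1 each for NS195R and NSEB5-2C. The 4 for NS21 became 1 with median scaling and 3 with normexp. For NS21, where 3.38% of all probes were higher and 1.81% lower by that p, the 4 were lower, at Irx1 (A_52_P1092823, 40.4-fold, adjusted p = 0.882) and the 3 Irx2 probes (4.81-fold, 4.73-fold and at least 4.77-fold, adjusted p = 0.806 to 0.824). For NS195R, with 7.0% higher and 3.18% lower, the 1 was En2, with a log2 difference of 6.94 (SE 0.55, limma adjusted p = 0.271). With normexp the En2 difference was 4.51. For NSEB5-2C, with 2.87% higher and 2.79% lower, the 1 was Gbx2, at least 19.4-fold lower (limma adjusted p = 0.793). That bound is 4.28 on the log2 scale, and with normexp the log2 difference was -1.61. Gbx2 passed the filter through the other lines alone. The median over the 9 was -2.25 for NS21, 1.63 for NS195R and 0.07 for the NSEB5-2C line, beside 0.07, -0.05 and -0.06 over all probes. These 9 probes stand for 6 genes, and the 3 of Irx2 share 1 transcript. The -2.25 is itself the value of Irx2 at A_52_P635312. The medians also take in differences against signals that were not well above background. They are thus no measure of a shift of the 9 genes.

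Between the highest and the lowest array, 4 of the 9 probes spanned at least 8-fold, against 33.0% of all tested probes. This count used the signals as deposited, unmeasured ones included. En2 spanned 156-fold and Irx1 (A_52_P1092823) 116-fold between measured levels. With unmeasured signals at their bound Gbx2 spanned at least 19.6-fold and En1 at least 2.88-fold, so that En1 was among the 4 only through signals that were not well above background. For each, the 3 genes with the most similar profile were found among 15984 candidates, by the root mean square of the log2 differences over the 4 arrays after centring. With 4 points and many genes, likeness is a description only.

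The profile nearest to En2 was that of Cnpy1 (root mean square 0.0868), an FGF signalling gene of the isthmus and the next coding gene to En2 in RefSeq order. Cnpy1 lay at 110% in NS195R and was not well above background in Mixture (0.863%), NS21 (1.25%) or NSEB5-2C (0.726%), so NS195R was at least 40.0-fold above the lowest line. A second Cnpy1 probe lay at 49.4% in NS195R and was not well above background elsewhere, and the remaining one had no measured signal. Insig1, the coding neighbour on the other side of En2, had a different profile, with 57.3% in NS21, 187% in NS195R, 129% in NSEB5-2C and 36.1% in Mixture. The next profiles were those of the glutamate receptor gene Gria4 (0.257) and the potassium channel gene Kcnd3 (0.29). These 3 were measured in NS195R alone, so their likeness to En2 rests on background values on 3 of the 4 arrays.

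Nearest to En1 were Lrrn2 (0.0352), Galnt17 (0.0836) and Skida1 (0.0858). These 3, like En1, were measured in NS195R alone, so their likeness rests on background values on 3 of the 4 arrays. Nearest to Gbx2 were the calcium channel gene Cacna1h (0.419), the ectodysplasin receptor gene Eda2r (0.421) and the noncoding RNA gene Rian (0.479), all measured in NS21 and NS195R and not in Mixture or NSEB5-2C. Nearest to Irx1 at A_52_P1092823 were the prostaglandin synthase gene Ptgds (0.303), the laminin gene Lama2 (0.305) and the glutamate receptor gene Gria1 (0.359). All 3 were measured in Mixture, NS195R and NSEB5-2C, and only Ptgds in NS21.

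**Figure D4:**
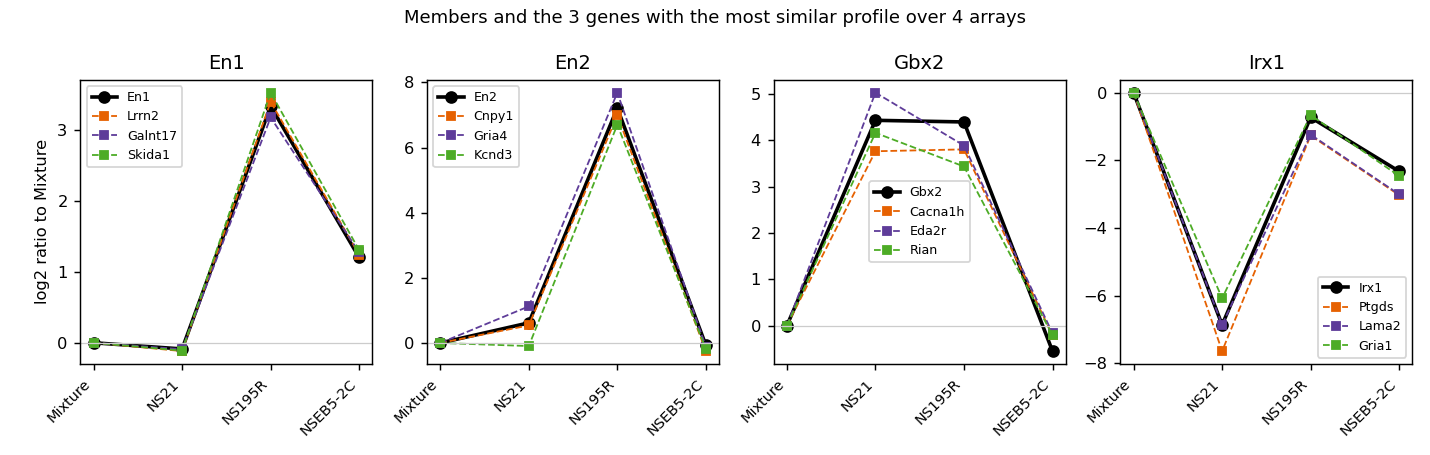
Log2 ratio to Mixture on each array for En1, En2, Gbx2 and Irx1 (A_52_P1092823), in black, and for the 3 genes of most similar profile to each, in colour. Lines join the arrays only to help the eye, and the arrays have no order. Cnpy1 lies at 6.99 in NS195R beside 7.21 for En2, and on the other arrays it was not well above background.

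Coding neighbours in the Iroquois clusters did not share 1 profile. In the order Irx1, Irx2, Irx4, NS21 was the lowest line for Irx1 at A_52_P1092823 and for Irx2, while the 3 lines had Irx4 within 1.35-fold of each other. Adamts16, the gene before Irx1, was measured in NS195R alone, at 42.6%. In the order Irx3, Irx5, Irx6 only Irx5 was measured, and Fto, beside Irx3, lay between 81.6% in Mixture and 143% in NS195R.

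Further genes of position were taken from lists. Of 28 isthmus and neighbouring patterning genes, 27 were on the array and 23 were tested, of which limma called 0 higher and 2 lower, with 5 and 4 by an unadjusted p under 0.05. Their median log2 difference from Mixture was 0.85, and 0.75 with unmeasured values set to the floor. Both were measured in Mixture alone and passed the filter through that array, so their falls are bounds. Pax5, a factor of the isthmus and of B cells, lay at 15.3% in Mixture and was at least 5.41-fold lower in the lines (limma adjusted p = 0.0144). Pax8, of the isthmus and kidney, lay at 8.79% in Mixture and was at least 3.11-fold lower (limma adjusted p = 0.0451), and both were lower in 3 of 3 lines. A second probe of each gave no measured level on the 4 arrays, with 0.982% for Pax5 and 0.826% for Pax8 in Mixture. Both calls ended without any 1 of the lines. The isthmus signals Wnt1 and Fgf17 and the transcription factor Pax2 had no measured level. Fgf8 lay at 5.13% in Mixture and between 8.96% and 10.6% in the lines at 1 probe, and a second Fgf8 probe gave no measured level (0.837% to 1.68%). Among the 20 of these genes measured in at least 1 line, NS195R was the highest line for 12, NS21 for 6 and NSEB5-2C for 2. How often each line is highest over all probes was not counted. At least 2-fold above both other lines were 11.5% of all tested probes for NS195R, 7.43% for NS21 and 6.26% for NSEB5-2C. NS195R was also the highest line for 10 of 15 neural progenitor markers.

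Isthmus-list genes apart from Otx2 and Cnpy1 ran in different directions between the lines. Sp5, a target of Wnt signalling, lay at 48.5% in Mixture, 174% in NS21, 129% in NS195R and 4.65% on the NSEB5-2C array, so that like Gbx2 it was lowest in NSEB5-2C. Lhx5 lay at 3.77%, 66.9%, 0.602% (not well above background) and 4.68%, with its highest level in NS21. Lhx1 lay at 39.8%, 5.33%, 1.85% (not well above background) and 96.0%, highest in NSEB5-2C. Sp8, a factor that maintains Fgf8, was measured in NS21 alone, at 5.08%.

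Of 21 hindbrain and cerebellum genes, 15 were tested and limma called 0 higher and 0 lower, with 1 and 0 by an unadjusted p under 0.05 and a median of 0.42 (-0.03 with unmeasured values set to the floor). Well above background were 12 in Mixture, 14 in NS21, 11 in NS195R and 10 on the NSEB5-2C array. Hoxb2, of the hindbrain segments, lay at 125% in NS21, 3.63% in NS195R and 1.91% (not well above background) on the NSEB5-2C array, and Hoxd4 at 385%, 19.2% and 15.2%. Hoxb3 lay at 56.1% in NS21, was not well above background in NS195R (2.39%) and lay at 8.28% in NSEB5-2C. Zic1, a factor of dorsal neural tube and cerebellum, ran the other way, with 7.06% in NS21, 426% in NS195R and 756% on the NSEB5-2C array.

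Of 16 forebrain genes, 12 were tested, and limma called 0 higher and 1 lower, with 0 and 2 by an unadjusted p under 0.05 and a median of -0.07 (0.04 with unmeasured values at the floor). The 1 called was Nkx2-1, of ventral forebrain and lung, which lay at 29.2% in Mixture, was not well above background in any line and was at least 10.3-fold lower there (limma adjusted p = 0.0124, lower in 3 of 3 lines). It passed the filter through Mixture alone. Lung was in the pool, with the marker levels given above, and its part in this result was not tested. Six3 was measured in NS195R (7.11%) and NSEB5-2C (19.7%), and Dlx2 lay at 4.34% in NS21, 8.55% in NS195R and 421% on the NSEB5-2C array. Dlx1 was measured in NSEB5-2C alone, at 93.5%. Emx2, of dorsal forebrain, lay at 20.4% in NS21 and 23.3% in NS195R and was not well above background in NSEB5-2C (0.674%). Lhx2 lay at 49.8%, 351% and 18.5% in the same lines.

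**Figure D5:**
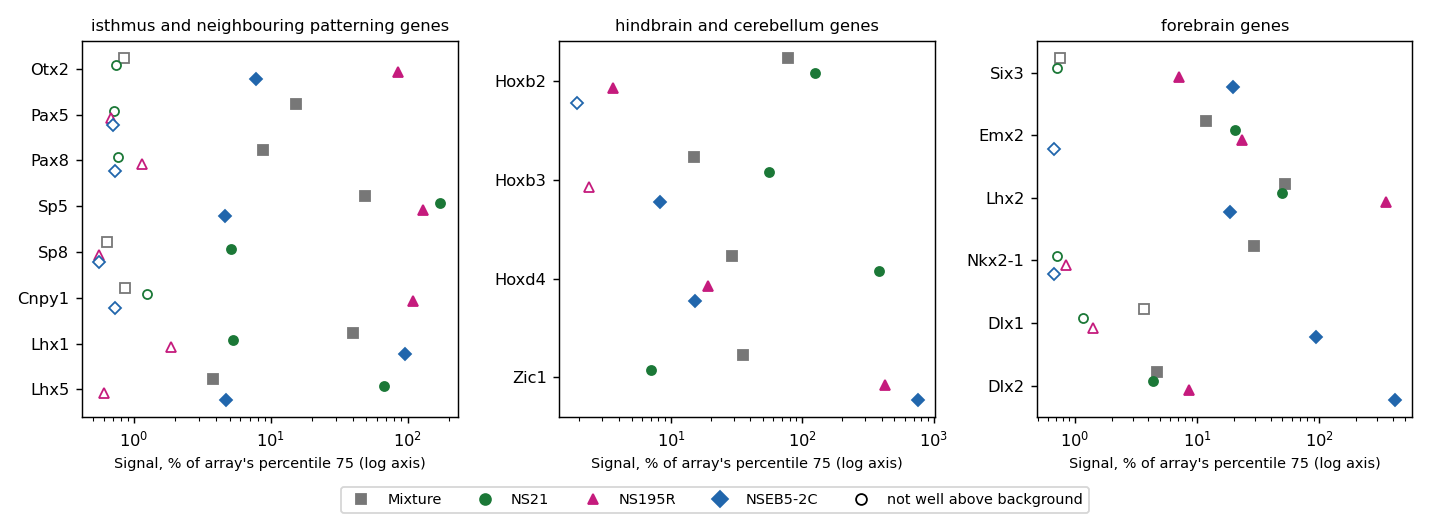
Signal of genes from the isthmus, hindbrain and forebrain lists on each array, as a percentage of that array's percentile 75 on log axes. Open symbols are not well above background. Among the lines, NS21 is highest for Hoxb2, Hoxb3 and Hoxd4, NSEB5-2C for Six3, Dlx1 and Dlx2, and NS195R for Otx2 and Cnpy1. Other genes of the same lists ran differently. NSEB5-2C is highest for Zic1 and Lhx1, NS195R for Emx2 and Lhx2, and NS21 for Sp5, Sp8 and Lhx5. Over hindbrain list genes measured in at least 1 line, NS21 was highest for 7, NS195R for 5 and NSEB5-2C for 3. For the forebrain list these numbers were 3, 4 and 4.

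Of 12 roof plate and choroid plexus genes, 11 were tested and limma called 0 higher and 3 lower, and the same numbers by an unadjusted p under 0.05, with a median of -3.94 (-3.32 with unmeasured values at the floor). The 3 were measured in Mixture alone and passed the filter through it. Ttr was at least 37.1-fold lower in the lines (limma adjusted p = 0.0102), Kcne2 at least 8.17-fold (0.0167) and Kl at least 118-fold (0.00906). Ttr is also a liver gene and Kl a kidney gene. Bmp4 lay at 74.4% in Mixture, 460% in NS21, 11.9% in NS195R and 53.2% on the NSEB5-2C array, and Msx2 was measured in NS21 (98.3%) and NSEB5-2C (18.0%). Bmp7 lay at 281% in NS21 and 77.9% in NS195R and was not well above background in NSEB5-2C (0.754%). Of 10 other Iroquois and TALE homeodomain genes, 9 were tested, and limma called 0 higher and 1 lower, Irx4, with 2 and 1 by an unadjusted p under 0.05 and a median of 1.34. Tgif2, a repressor of TGF-beta targets, had the largest difference among those not called, with a log2 of 3.22 (SE 0.61, limma adjusted p = 0.0786). It lay at 2287% in NS21, 2758% in NS195R, 1283% in NSEB5-2C and 216% in Mixture. Pbx4 lay at 59.3% in NS21, 57.7% in NS195R and 12.4% on the NSEB5-2C array.

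Markers of other cell types also differed between the lines. Of 9 oligodendrocyte lineage markers, NS195R had 7 well above background, NS21 had 5 and NSEB5-2C had 3, with summed levels of 7930%, 327% and 258%. Of 12 neuron markers, 11, 8 and 7 were, with sums of 1370%, 622% and 324%, and of 8 astrocyte markers 7, 5 and 5, with 4810%, 904% and 900%. These sums, like En1 and En2, were highest in NS195R, and their part in the Engrailed result was not tested. In NS195R Olig1 (5307%) and Olig2 (2147%) made up most of the oligodendrocyte lineage sum, and Map2 (888%) most of the neuron sum. Mbp ran the other way, with 184% in NS21, 129% in NSEB5-2C and 2.19% (not well above background) in NS195R. So did Stmn2, with 139%, 13.8% and 0.669% (not well above background) in the same order. NS195R was the highest line for 7 of 9 oligodendrocyte lineage, 8 of 12 neuron and 6 of 7 tested astrocyte markers, not counted over all probes. Of 8 neural crest markers, 7 were well above background in NS21, 6 in NS195R and 6 on the NSEB5-2C array, and of 10 mesenchyme markers 9, 10 and 9. Of 10 pluripotent cell markers, 6 were well above background in NS21 and 4 in each of the other lines.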

How the data were processed

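The spot intensity values came from the authors' run of Agilent Feature Extraction, version 9.5.3.1 per the file headers. Over all 45018 features the deposited table of values equalled that processed intensity (largest difference 0). Its column medians were 15.0 (NS21), 18.2 (NS195R), 12.2 (NSEB5-2C) and 27.4 (Mixture), and columns of other samples numbered 0. The arrays shared 1 slide and 1 scan. For the probe positions a genome build is not given in the sources used.

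Levels are log2 processed signals less the percentile 75 of the array's non-control spots. Spots marked as non-uniform or population outliers (68 to 121 per array) were left out and repeated spots averaged. The median SD of 245 repeated probes was 0.0734 to 0.117 on the log2 scale per array, and a technical SD beside a value is the median of the 25 repeated probes nearest in signal. It is a spread within an array and holds no labelling or hybridisation differences between arrays. NPC lines were compared with Mixture, and each line with the others, by two-sided moderated tests of limma 3.58.1 under R 4.3.3, with lmFit, eBayes and Benjamini-Hochberg adjustment over 29700 probes and a threshold of 0.05. The lines' spread was taken to hold for the lone Mixture array. Residual degrees of freedom were 2 against Mixture, with 1.41 from the prior. The fit was tested on simulated data with the same spread for every probe and array. That setting cannot test whether the lone Mixture array varies like the lines. Symbols were matched to RefSeq through the transcript for 22951 probes, the symbol for 6659 and a synonym for 3109, and 8455 kept the name in the files.

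The members and lists were chosen with earlier results of these data known. Named genes were taken from all members, Irx4 and Irx6, list genes that passed limma against Mixture, up to 6 per list with the largest difference between lines, and the 3 most similar profiles for members spanning at least 8-fold. Wnt1, Fgf17, Pax2, Fgf8, Th, Fev, Tph2, Ddc, Nr4a2, Pitx3, Slc6a3, Slc6a4, the coding neighbours, Sox2, Nes, Vim and Prom1 were added after their values were seen. So were the single oligodendrocyte lineage and neuron markers named. Some genes that the rule names are left out of the text and figures, and list counts and medians include them. Alternatives covered background correction, scaling, the filter on dim probes, marked spots, probes per gene, the variance prior, the detection call, the value table and leaving out each line. The normexp correction added an offset of 50 to each signal before the log2, which by construction shrinks ratios between dim signals.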

Additional observations from a re-analysis of the deposited data

Results flagged for a closer look

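Irx2 lay above Mixture in some lines and below it in NS21, and limma set NS21 against the other lines with an adjusted p of 0.806 to 0.824 over the 3 Irx2 probes, 4.73-fold to 4.81-fold lower at those measured in all lines. At A_51_P320281 the log2 ratio to Mixture was 1.07 in NSEB5-2C and -1.23 in NS21. At A_52_P398122 it was 1.18 in NS195R, 1.19 in NSEB5-2C and -1.05 in NS21. The directions held under percentile, median and quantile scaling and normexp. Relative to the median shift of each line, A_51_P320281 lay at 0.27 in NS195R and 0.32 in NSEB5-2C. At A_52_P398122 these were 0.46 and 0.44, and NS21 lay at -2.05 and -1.87 at the 2 probes. With normexp, A_52_P635312 lay at -0.13 in NS195R and -0.009 in NSEB5-2C relative to that shift.

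Spots left out as outliers carried signal above the floor at positions where the other copies of the same probe did not or hardly did. One En1 spot reached 28.3% of percentile 75 on the Mixture array and 1 reached 21.8% on the NSEB5-2C array, where the kept spots averaged 0.779% and 1.80%. One En2 spot reached 18.8% on the Mixture array, where the kept spots averaged 4.12%.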

How the results depend on the processing

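Counts over all probes against Mixture depended on the processing. The 280 probes called higher became 1324 with normexp, 1065 with quantile normalization, 752 with no filter on dim probes, 597 with an intensity trend and 659 with dim values raised to the floor, a step chosen after seeing the data. Over probes measured on all 4 arrays, and without any 1 line, 0 were higher and 0 lower, with 4785 and 933 at an unadjusted p under 0.05 in the first case and between 2449 and 4002 and between 3828 and 4642 in the others. The member count stayed at 0 in each setting run. The study's rule of size took 5 of 9 member probes with median scaling and with quantile normalization, 2 of 9 with normexp and 2 of 6 genes with the highest probe or the mean of probes per gene, in place of 4 of 9. Member probes at least 2-fold below in NS21 numbered 3 of 9 with normexp and 3 of 6 genes in both per-gene settings. Those above in NS195R numbered 2 with normexp. Those below in NSEB5-2C numbered 1 with normexp, 0 of 5 over probes measured on all arrays and 1 of 6 in both per-gene settings. By the mark of positive and significant signal alone, 10 of 13 member probes counted in NSEB5-2C, in place of 6. The cause of these changes was not tested beyond the settings' own construction.

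Reversed values in the line comparisons were Irx1 at A_51_P149868 in NS21 (0.27, and -0.11 with normexp and -2.53 with the mean of probes), Irx1 at A_52_P1092823 in NSEB5-2C (1.47, and -0.21 with the mean of probes), Irx5 in NSEB5-2C (0.07, and -0.034 with normexp) and En1 in NSEB5-2C (-0.42, and 0.11 with quantile normalization). So were Irx4 in NS195R (0.35, and -0.037 with quantile normalization) and in NSEB5-2C (-0.30, and 0.092 with quantile normalization and 0.055 with median scaling). Irx2 at A_51_P320281 against Mixture was 0.28, and ranged from -0.12 without NSEB5-2C and -0.08 without NS195R to 1.04 without NS21. Of the other single values, 391 kept direction and side of the threshold and 5, all of Irx4, lost the call. No paired analysis was possible because Mixture has 1 array, so that the groups share fewer than 2 replicate numbers. The number of arrays limits the precision, and signals near the floor limit En1, Lmx1a, Lmx1b and Irx3.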
